A study of Mus musculus with 6 samples.

Results

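Hormone-stage endocrine cells of the first wave of the embryonic mouse pancreas were picked out of single-cell RNA profiles as cell barcodes with at least 1000 genes above 0 and at least 3 UMIs (unique molecular identifiers, each marking 1 captured RNA molecule) of Chga plus Chgb, the genes of chromogranins A and B. Of 1919 barcodes, 820 reached the gene minimum and 228 of these met the chromogranin minimum. The set was thus chosen by the measured UMIs of Chga and Chgb, and those values are description, not a finding. Its barcodes are called chromogranin barcodes here, and the remaining 592 are the other barcodes. The profiles came from tissue dissected as multipotent pancreatic progenitors from C57BL/6 embryos at embryonic day 10.5, with 5 to 9 embryos pooled per dataset. The wild-type library (WT) was from Ptf1a+/+ embryos and the other library (KO) from Ptf1aenh-delta/enh-delta embryos, homozygous for the deletion of an enhancer of Ptf1a. Each genotype had 1 RNA library, so no difference below has a replicate check and none was tested. All intervals are 95% intervals of counting error only, and the genotype, the pool and the library cannot be told apart.

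Endocrine cells arise in the pancreatic epithelium from progenitors that switch on Neurog3, a transcription factor that starts endocrine differentiation, and then leave the cell cycle and build secretory granules. The first wave in the mouse is known mainly for glucagon cells and for cells that hold more than one hormone, before most insulin cells form. Chromogranins are acidic proteins packed into the granules with the hormones. PTF1A is a transcription factor of the early pancreatic progenitors and later of acinar cells.

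The WT library held 81 chromogranin barcodes among 451 that reached the gene minimum (17.96%, 14.5 to 21.8%), and the KO library held 147 among 369 (39.8%, 34.8 to 45.0%). The share was 21.9 points higher in KO (15.7 to 27.9). Over epithelial barcodes alone, those with at least 2 UMIs of Epcam plus Cdh1, the shares were 26.1% in WT and 51.4% in KO. At a common depth of 2000 UMIs per barcode, with at least 1 chromogranin UMI asked for, they were 20.3% and 40.4%. With at least 3 chromogranin UMIs asked for at that depth they were 8.97% and 18.2%, a difference of 9.24 points (4.22 to 14.4). The chromogranin barcodes had a median of 13599 UMIs in WT and 11633 in KO, against 5044.5 and 6688 in the other barcodes. Just inside the minimum, at exactly 3 UMIs, stood 5 WT and 7 KO barcodes, with a median of 10 and 55 hormone UMIs. Just outside it, at 2 UMIs, stood 9 WT and 7 KO barcodes, with a median of 17 and 25 hormone UMIs. The edge of the set therefore runs through hormone-bearing barcodes. Outside the set, 11 WT and 25 KO barcodes had at least 10 UMIs of Gcg, Ghrl, Sst, Ins1, Ins2 or Pyy. Not all of these were near the edge: 9 WT and 10 KO ones had 1 or 2 chromogranin UMIs, and 2 and 15 had 0. Pyy led in 7 and 18 of the hormone-bearing barcodes outside, Gcg in 4 and 5 and Ghrl in 0 and 2. Of the barcodes below the gene minimum, 0 of 653 in WT and 0 of 446 in KO met the chromogranin minimum, which allows shares of up to 0.563% and 0.824% by the exact interval. No chromogranin barcode shared its sequence with a kept barcode of the other library. A doublet caller marked 1 of the 81 WT and 8 of the 147 KO barcodes.

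Ptf1a itself had 0 UMIs in the chromogranin barcodes of both libraries, which at 3 counts allows up to 2.46 CPM (the counts scaled to a common library total) in WT and 1.52 CPM in KO. In the other barcodes it stood at 49.2 CPM in WT and had 0 UMIs in KO. The deleted enhancer's gene was thus not detected in these cells in either genotype at this depth.

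The results turn on 3 hormone genes, Gcg (glucagon, chr2:62474530-62483653), Pyy (peptide YY, chr11:102106676-102107832) and Ghrl (ghrelin, chr6:113716119-113719911), all on the minus strand of GRCm38.p6. Their promoters are shown because all 3 genes were found together in a minority of the cells. Ghrl reached 3 UMIs in 29.6% of WT and 26.5% of KO chromogranin barcodes. The 250 bases before the RefSeq start of each gene follow, 5′ to 3′ on the strand of the gene, at chr2:62483654-62483903, chr11:102107833-102108082 and chr6:113719912-113720161. Capitals mark CANNTG, the E-box core that reads the same on both strands and that basic helix-loop-helix factors such as NEUROG3 and NEUROD1 can bind.
Gcg: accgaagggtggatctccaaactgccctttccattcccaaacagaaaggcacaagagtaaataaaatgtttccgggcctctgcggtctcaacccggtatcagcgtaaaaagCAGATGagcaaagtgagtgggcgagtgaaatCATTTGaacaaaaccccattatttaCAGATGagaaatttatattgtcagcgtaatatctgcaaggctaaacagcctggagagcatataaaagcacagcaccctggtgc
Pyy: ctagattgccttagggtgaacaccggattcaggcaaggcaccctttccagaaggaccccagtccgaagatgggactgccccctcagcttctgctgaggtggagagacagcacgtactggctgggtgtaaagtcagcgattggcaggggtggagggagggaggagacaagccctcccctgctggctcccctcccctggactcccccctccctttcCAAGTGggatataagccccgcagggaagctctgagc
Ghrl: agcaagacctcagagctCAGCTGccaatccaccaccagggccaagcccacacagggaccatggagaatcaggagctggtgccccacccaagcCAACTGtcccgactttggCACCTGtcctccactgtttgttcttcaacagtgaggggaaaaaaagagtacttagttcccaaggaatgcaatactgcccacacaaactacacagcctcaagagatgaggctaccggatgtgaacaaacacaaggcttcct
The Gcg and Ghrl windows each held 3 matches and the Pyy window held 1. The form CAGATG, searched together with its reverse complement CATCTG, occurred 2 times in the Gcg window, each overlapping a CANNTG match, and 0 times in the other windows. Among 32851 RefSeq promoter windows of the same length, 66.2% held CANNTG and 14.4% held CAGATG or CATCTG, so a CANNTG match is common. A match is a string of letters and was not tested as a binding site.

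The chromogranin barcodes carried a broad secretory programme in both genotypes. The other 4 markers of the label were all higher in the set. Gcg stood at 20629 CPM in WT and 16026 in KO, against 113 and 297 CPM in the other barcodes. Pyy, which encodes a gut and islet peptide, stood at 10659 and 8743 CPM, against 154 and 497. Ghrl stood at 1159 and 2344 CPM, against 2.42 and 228. Cartpt, the gene of the neuropeptide CART, stood at 255 and 500 CPM, against 1.38 and 1.97. Chga (457 and 408 CPM) and Chgb (1227 and 1700 CPM) were higher by construction.

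Log2 ratios of CPM plus a pseudocount of 10 CPM were formed inside each library, which understates the difference of low genes, and a gene was counted when it lay past 2-fold in the same direction in both libraries. Of 10367 genes with at least 50 UMIs, 398 were higher in the chromogranin barcodes by this measure (3.84%) and 125 lower (1.21%). Since the set was cut from the same cells, these counts describe it and test nothing. The median log2 ratio over all genes was 0.06 in WT and -0.03 in KO. Besides the markers, the highest genes by the weaker library were Iapp (5.63 and 4.57), Tmem27 (5.21 and 4.37), Ins1 (4.72 and 4.08), Scg3 (4.20 and 3.99), Sct (4.73 and 3.97), Slc38a5 (5.29 and 3.87), Pcsk2 (5.20 and 3.77), Pcsk1n (3.78 and 3.58) and Gast (3.87 and 3.29), as log2 ratios in WT and KO. Iapp encodes the islet amyloid peptide, Sct secretin, Gast gastrin, Scg3 a granin that sorts cargo into granules, Pcsk2 a prohormone convertase and Pcsk1n an inhibitor of its relative. Slc38a5, an amino acid transporter of alpha cells, was seen in 100% of the chromogranin barcodes of both libraries, against 16.2% and 27.9% of the other barcodes.

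**Figure D1:**
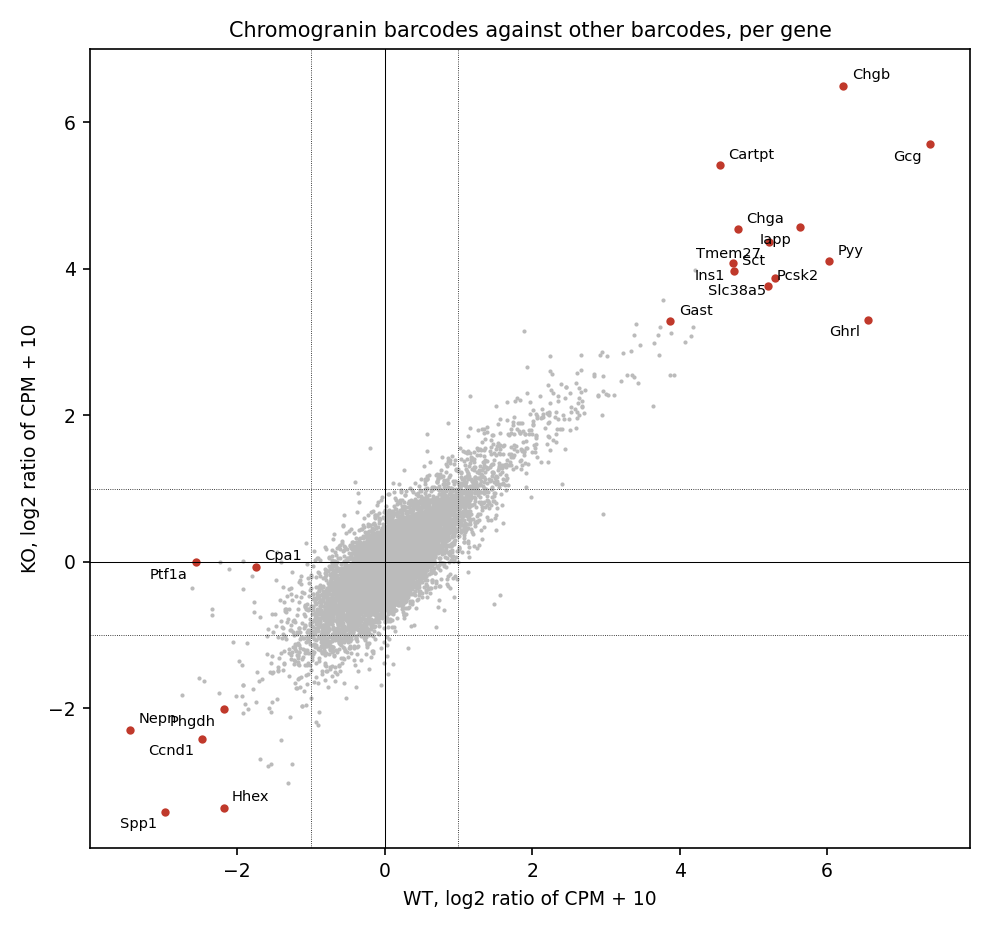
Log2 ratio of CPM plus 10 between chromogranin barcodes and other barcodes, WT on the horizontal and KO on the vertical axis. Each grey point is 1 of 10367 genes, red points are named, and dotted lines mark 2-fold. Chgb, Gcg, Cartpt and Iapp sit at the upper right in both libraries, while Ptf1a and Cpa1 were lower in WT alone.

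Of the hormones, 14 of 20 reached the gene minimum and 13 were past 2-fold higher, with a median log2 ratio of 4.21 in WT and 3.30 in KO. The exception, Gip, was past it in WT and at 0.66 in KO. Sct (1093 and 1000 CPM), Cck (314 and 399 CPM), Ppy (93.6 and 69.8 CPM) and Gal (112 and 130 CPM) were in this group. The enteroendocrine genes overlap it, and 4 of 6 measured were past 2-fold higher, with Tph1, which makes serotonin, at 1.35 and 1.44.

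Granins and prohormone processing genes were higher in 16 of 17 measured, 2 of them the genes that chose the set, with a median of 2.67 in WT and 2.54 in KO. They cover the route from prohormone to granule: Pcsk1 (66.5 and 71.8 CPM) and Pcsk2 (661 and 508 CPM) cut prohormones, Cpe (534 and 508 CPM) trims the ends, and Pam (273 and 280 CPM) adds the amide that many peptides need. Furin, which works in the general secretory route, was the exception at 0.47 and -0.17. Mboat4, the acyltransferase that activates ghrelin, was at 1.22 and 1.30. Exocytosis machinery was higher in 14 of 17 measured, with a median of 1.65 and 1.51. Syt13 led this list (2.61 and 2.05), Snap25, a membrane fusion protein, was at 1.75 and 1.60, and Rab3b was at 0.14 and -0.02. Among nutrient and ion channel genes 6 of 12 were higher, led by Abcc8, the sulfonylurea receptor subunit of the ATP-sensitive potassium channel (2.24 and 2.82). Slc2a2, the glucose transporter GLUT2, was lower at -1.54 and -2.05.

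Endocrine transcription factors were higher in 15 of 20 measured, with a median of 2.24 in WT and 1.94 in KO. Irx2 led them (4.18 and 3.20). Isl1, at 856 and 1272 CPM, and Pax6, at 330 and 386 CPM, were also higher. The 5 that did not pass were Pax4, Nkx2-2, Rfx3, Nkx6-1 and Peg3. Alpha cell genes were higher in 11 of 12 (medians 3.98 and 2.94), and the exception was Gc, at -2.34 and -0.64. The beta cell genes gave 5 of 11 higher and 1 lower, with Ins1, Ins2, Iapp and Papss2 among the higher and Slc2a2 lower. Mafa, a factor of mature beta cells, had too few UMIs to be measured, as did Ucn3, which had 0. The delta and PP cell genes gave 3 of 4 higher, Sst, Ppy and Rbp4, while Hhex, a factor needed by delta cells and by early liver and pancreas, was lower (-2.18 and -3.35).

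Endocrine commitment genes were mixed. Of 15 measured, 5 were higher (Neurod1, Fev, Mfng, Insm1 and Btbd17) and Sox4 was lower, with a median of 0.58 and 0.26. Fev led them at 3.34 and 2.89. Neurog3 stood at 23.0 CPM in WT and 50.1 in KO, against 18.3 and 59.5 in the other barcodes. In the Notch pathway 2 of 10 were higher, the ligand gene Dll3 (2.36 and 2.26) and the glycosyltransferase gene Mfng (1.88 and 1.79), and 2 lower, the receptor gene Notch1 (-1.21 and -1.36) and the target gene Hes1 (-2.02 and -1.84). The medians were -0.21 and -0.16.

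Progenitor genes were lower or near level. Of 15 pancreatic progenitor genes measured, 0 were past 2-fold higher and 6 were lower, Spp1, Nepn, Vtn, Hes1, Onecut1 and Nr5a2, with a median of -1.74 in WT and -0.64 in KO. Spp1, which encodes osteopontin, was the lowest at -2.98 and -3.41, and Nepn was at -3.45 and -2.29. Sox9, a progenitor and duct factor, was near level at -0.18 and 0.29. The epithelium list had 0 of 12 past 2-fold in either direction, with medians of -0.62 and -0.99, Foxa2 highest (0.69 and 0.85) and Cldn3 lowest (-1.38 and -0.99).

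Proliferation genes were lower in 4 of 18, Ube2c, Ccnb1, Ccnb2 and Cenpf, and 0 were higher. All 18 had negative ratios in both libraries, with Pcna (-0.36 and -0.73) and Ube2c (-1.56 and -1.50) as the ends of the list, and medians of -0.78 and -1.07. Of cell cycle exit and D cyclin genes, Ccnd1 was among the lowest of all genes (-2.47 and -2.41), and Btg2 (1.84 and 1.37) and Cdkn2d (1.22 and 1.11) were higher, 2 of 12 up and 1 down. Phgdh, the first enzyme of serine synthesis, was also among the 5 lowest genes (-2.17 and -2.01).

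Markers of other cells were low but not all at 0. Endothelium had 20.5 CPM summed over its genes in WT and 8.09 in KO, blood 5.75 and 12.1, mesothelium 18.1 and 5.06, and gut and stomach epithelium 4.93 and 15.2. None of the last 3 lists had a measured gene, and the 2 measured endothelial genes were not past 2-fold. Mesenchyme was not low: its 13 genes summed to 798 CPM in both libraries, against 884 and 981 in the other barcodes, and 0 of 12 measured genes were past 2-fold. Per barcode that sum ran from 0 to 3421 CPM in WT (median 294) and from 0 to 4196 in KO (median 306). Hepatobiliary genes summed to 825 and 745 CPM, with Krt7 higher (2.60 and 1.83) and Hhex, Itih2 and Sox17 lower among 11 measured. Of the sympathoadrenal and enteric neuron list 3 of 7 were higher, Th and Elavl3 among them, while Dbh had 0 UMIs in both libraries. Sex-linked genes had 0 of 6 past 2-fold, and of the dissociation stress genes Ier2 was lower (-1.37 and -1.39) among 5 measured. The part of other cells' RNA in these values was not tested.

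The 6 hormone genes Gcg, Ghrl, Sst, Ins1, Ins2 and Pyy were then followed in single barcodes. The 3′ libraries count 1 molecule once whatever its length, so UMIs of different genes can be set against each other. A hormone was said to lead when it had the most UMIs of the 6 and at least 3. Gcg led in 37 of 81 WT barcodes (45.7%, 34.6 to 57.1%) and 57 of 147 KO barcodes (38.8%, 30.9 to 47.2%). Pyy led in 35 (43.2%, 32.2 to 54.7%) and 67 (45.6%, 37.4 to 54.0%). Ghrl led in 2 (2.47%, 0.300 to 8.64%) and 12 (8.16%, 4.29 to 13.8%). In 7 WT and 11 KO barcodes no hormone reached 3 UMIs. Sst, Ins1 and Ins2 led in 0 barcodes of either library, which allows a share of up to 4.45% in WT and 2.48% in KO by the exact interval. The intervals of the KO minus WT differences all reach across 0: -6.90 points for Gcg (-20.0 to 6.26), 2.37 for Pyy (-11.0 to 15.4) and 5.69 for Ghrl (-1.30 to 11.5). These differences in make-up were therefore not larger than counting error. The Pyy difference also turned with the setting, at -0.529 points with a hormone minimum of 1 UMI, 9.52 with 10 UMIs and 9.82 after thinning to 2000 UMIs.

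**Figure D2:**
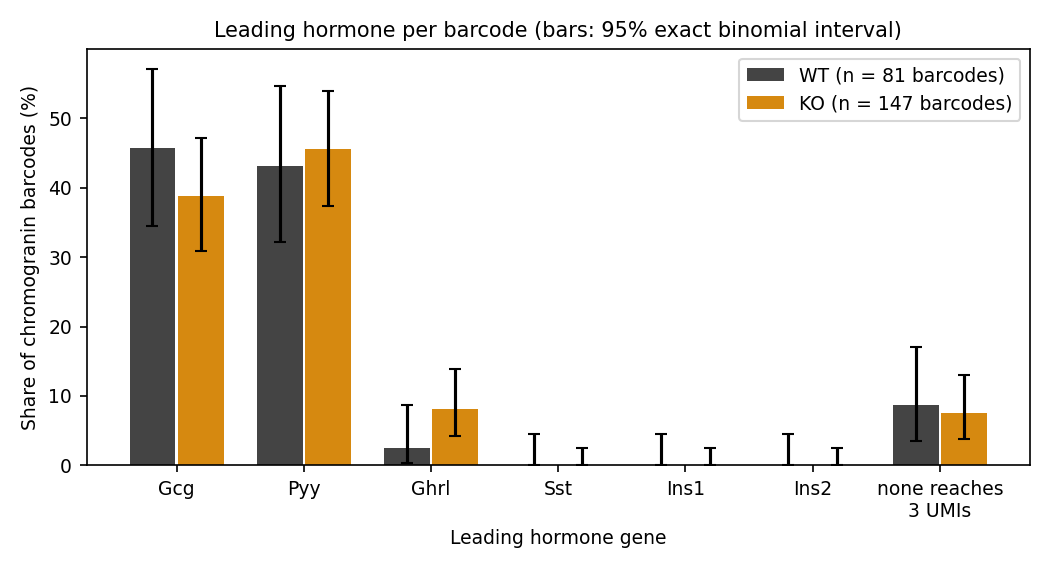
Share of chromogranin barcodes, in percent, by the hormone gene with the most UMIs, for WT (81 barcodes) and KO (147 barcodes). Bars show 95% exact binomial intervals. Gcg and Pyy lead in most barcodes of both libraries, and the WT and KO intervals overlap for each hormone.

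Most cells held several hormones. With at least 3 UMIs asked of each, 55 WT barcodes (67.9%) and 91 KO barcodes (61.9%) held 2 or more of the 6. The most frequent combination was Gcg with Pyy alone, in 27 WT and 49 KO barcodes, followed by Pyy with no other, in 19 and 44. Gcg, Pyy and Ghrl together were found in 10 and 15, and these with Ins1 in 5 and 10. Gcg with no other hormone was found in 0 WT and 1 KO barcode. All 6 hormones were found in 1 barcode of each library.

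Pyy reached 3 UMIs in 91.4% of all WT and 91.8% of all KO chromogranin barcodes, so most overlaps with it are close to that base share. Of the barcodes with Gcg, 53 of 53 in WT and 85 of 86 in KO also had Pyy, while of those with Pyy 71.6% and 63.0% had Gcg. All 24 WT and all 39 KO barcodes with Ghrl had Pyy, and 91.7% and 84.6% had Gcg. Of the barcodes with Ins1, 15 of 15 and 15 of 17 had Gcg, and 11 of 15 and 17 of 17 had Ghrl. Every barcode with Ins2 (6 and 7) or Sst (3 and 6) had both Gcg and Pyy. Doublets can add hormones to a barcode, and their part in these combinations was not tested; the caller marked 9 of the 228.

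Each hormone was set against a background of 26 WT and 21 KO barcodes with mesenchymal markers, with no Epcam or Cdh1 UMI and a median depth of 2486.5 and 3199 UMIs. At least 1 Gcg UMI was seen in 70.4% and 70.1% of chromogranin barcodes and in 34.6% and 23.8% of that background. After thinning to 2000 UMIs the Gcg shares were 64.2% and 62.3%, against 15.8% and 6.67%. At 3 UMIs or more the Gcg shares were 65.4% and 58.5%, against 0 barcodes. Shares at 3 UMIs were not taken at a common depth, and the set had median depths of 13599 and 11633 UMIs. The background thus cannot show how often 3 stray UMIs would be found at the depth of the set. For Pyy the shares at 1 UMI were 96.3% and 95.2%, against 19.2% and 23.8%, and 1 WT and 2 KO background barcodes reached 3 UMIs. Ghrl was seen in 43.2% and 45.6%, against 0 barcodes, Ins1 in 22.2% and 16.3%, against 0 and 1, Ins2 in 17.3% and 10.9%, against 0, and Sst in 9.88% and 8.16%, against 0. Single UMIs of Gcg and Pyy were thus also found in cells of another kind.

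Per barcode, Gcg ran from 0 to 88389 CPM in WT with a median of 7571, and from 0 to 117770 CPM in KO with a median of 2134. The distribution was split, with 24 WT and 44 KO barcodes at 0 Gcg UMIs. Pyy was more even, with a median of 7322 CPM in WT (0 to 49972) and 8403 in KO (0 to 34691). The rarer hormones were carried by few cells. The highest 10 barcodes held 84.8% of the WT Ghrl UMIs and 70.6% of the KO ones. For Ins1 they held 88.0% and 88.8%, and for Cartpt 90.0% and 66.5%. Of the 125 Sst UMIs in WT, 87.2% came from 1 barcode.

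**Figure D3:**
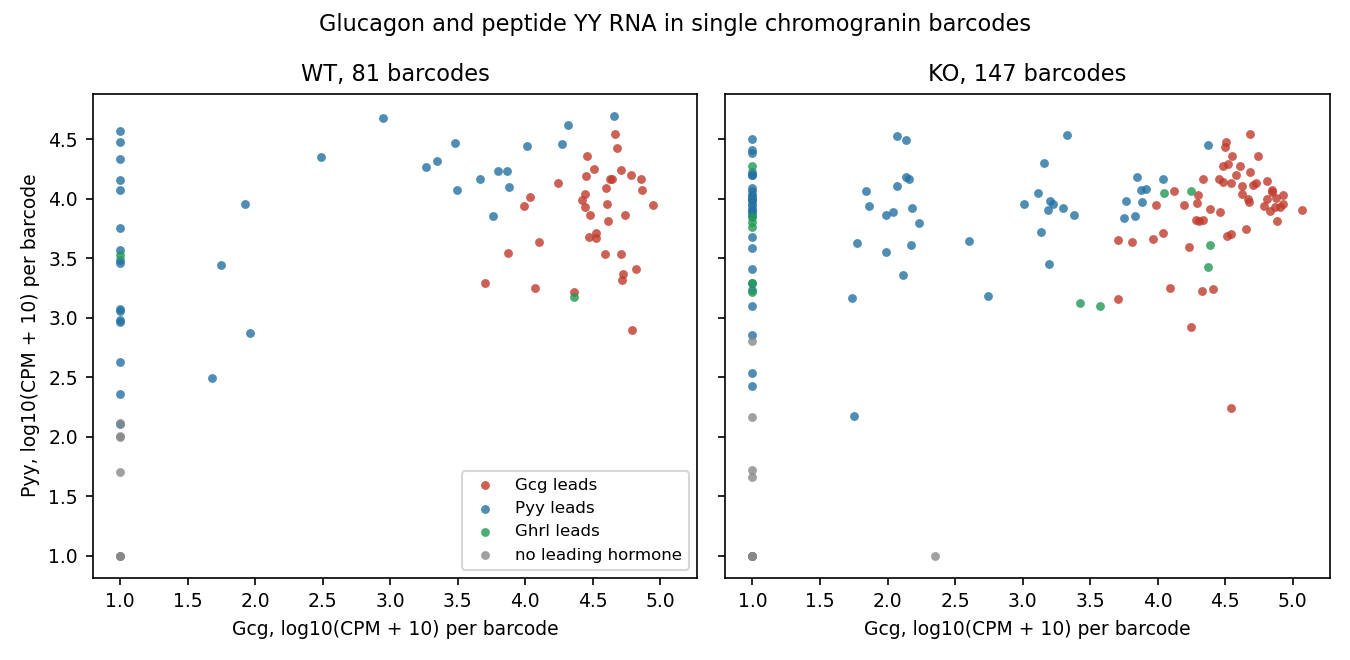
Gcg (horizontal) and Pyy (vertical) in single chromogranin barcodes, as log10 of CPM plus 10, in WT (left) and KO (right). Each point is 1 barcode, coloured by its leading hormone. Gcg-leading barcodes sit at high Pyy as well, while many Pyy-leading barcodes line up at 0 Gcg at the left edge.

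Gcg-leading and Pyy-leading barcodes did not simply differ in which hormone was higher. Pyy itself was at 9856 CPM in the Gcg-leading WT barcodes and 13710 in the Pyy-leading ones. Its median per barcode was 8637 CPM against 11803 in WT and 9198 against 8751 in KO. Gcg was at 37827 CPM against 4281 in WT. The other genes below had no part in naming the classes, except Ghrl, Sst, Ins1 and Ins2, and all were singled out after their values were seen. Of 7327 genes measured, 34 were past 2-fold higher in the Gcg-leading class in both libraries (0.464%) and 26 lower (0.355%), around medians of -0.02 in WT and -0.04 in KO.

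The Gcg-leading class was the richer in further peptides. Cartpt stood at 504 CPM in WT and 915 in KO, against 13.7 and 73.1 in the Pyy-leading class. A Cartpt UMI was seen in 22 of 37 WT and 29 of 57 KO Gcg-leading barcodes, against 2 of 35 and 6 of 67. Iapp was at 829 and 1412 CPM against 331 and 351. Scg2, a granin gene, was at 68.1 and 81.8 CPM against 5.88 and 13.1, and Pcsk2 at 921 and 720 against 445 and 348. Ghrl (2.38 and 3.08), Sst (3.74 and 3.37) and Ins1 (2.29 and 5.25) were also higher here as log2 ratios in WT and KO, while Ins2 was at 2.88 and -0.19. The Sst and Ins2 ratios rest on few cells. A single Gcg-leading barcode held 87.2% of the 125 WT Sst UMIs, and a single Pyy-leading barcode held 56.2% of the 178 KO Ins2 UMIs. Ttr, which encodes transthyretin and is high in alpha cells, was at 9383 and 7931 CPM against 3312 and 3255. The neurofilament gene Nefm (1.84 and 1.59) and Pde10a, a cyclic nucleotide phosphodiesterase gene (1.75 and 2.05), belonged to this group too.

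The Pyy-leading class was the richer in Neurog3 and in several epithelial genes. Neurog3 stood at 37.2 CPM in WT and 63.3 in KO, against 3.32 and 2.52 in the Gcg-leading class. A Neurog3 UMI was seen in 5 of 35 WT and 21 of 67 KO Pyy-leading barcodes, and in 1 of 37 and 2 of 57 Gcg-leading ones. The 5 WT ones had Pyy at 119, 735, 918, 1120 and 37344 CPM, against a class median of 11803. In WT the Neurog3 level thus came mostly from barcodes with little hormone RNA. With a hormone minimum of 10 UMIs, Pyy led in 27 WT and 63 KO barcodes. Fev was at 159 and 183 CPM against 53.2 and 47.8, and Sox9 at 557 and 753 against 229 and 273. Gpx2, a glutathione peroxidase gene, was at 214 and 468 CPM against 43.2 and 76.8, and Cldn4, a tight junction gene, at 96.0 and 106 against 33.2 and 27.7. Sct was at 1654 and 1453 CPM against 696 and 630.

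The granins parted between the classes. Chgb was at 1772 CPM in WT and 2238 in KO in the Pyy-leading class, against 663 and 634 in the Gcg-leading one. Its median per barcode differed less, 697 CPM in WT and 894 in KO against 478 and 433. Single Pyy-leading barcodes reached 16492 CPM in WT and 23945 in KO and weigh heavily in the sums. Summed Chga went the other way, 329 and 298 CPM against 617 and 532, short of 2-fold. Chga made up 48.2% and 45.6% of the summed chromogranin UMIs of the Gcg-leading class and 15.7% and 11.8% of those of the Pyy-leading class. The barcodes highest in Chgb weigh in these shares too. The 2 genes chose the set through their sum, so their ratio was free to vary, though a class rich in either is more easily included. Several endocrine factors did not part the classes in the same way. Irx2 was at 0.41 and 0.00, Isl1 at 0.00 and -0.43 and Neurod1 at -0.05 and -0.08, as log2 ratios.

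**Figure D4:**
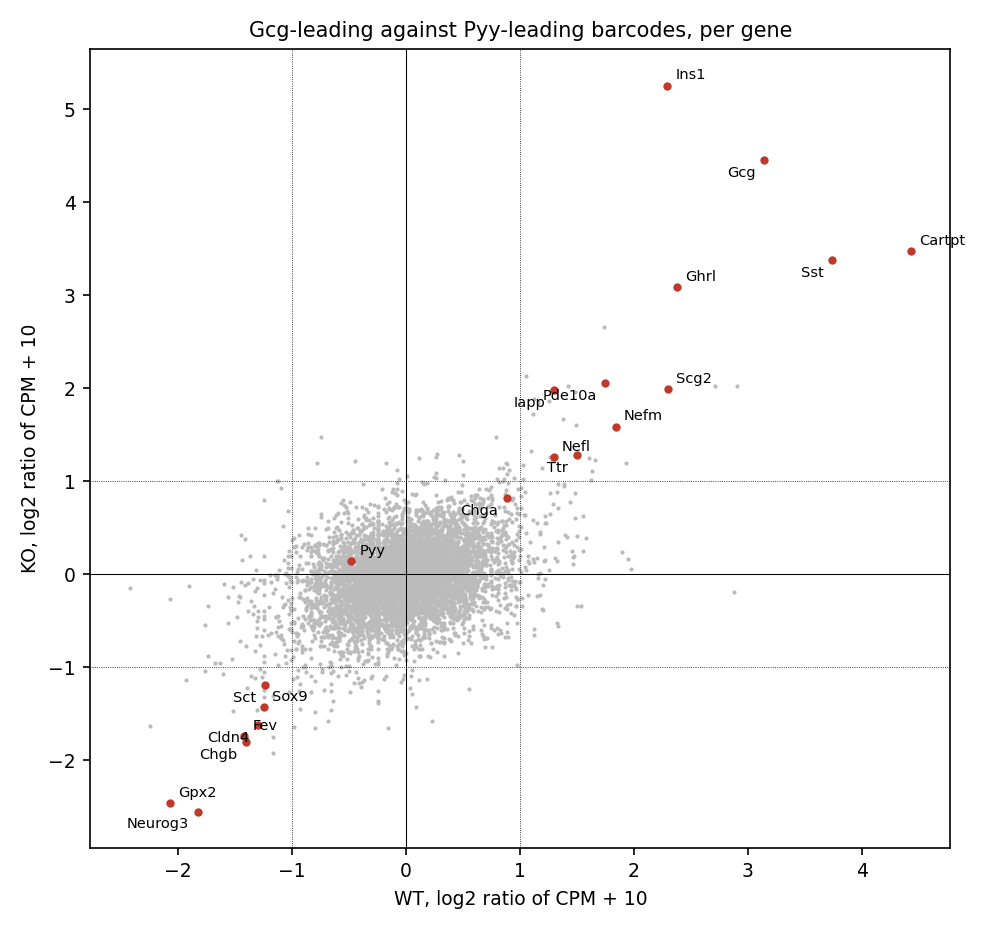
Log2 ratio of CPM plus 10 between Gcg-leading and Pyy-leading barcodes, WT horizontal and KO vertical. Each grey point is 1 of 7327 genes, red points are named, and dotted lines mark 2-fold. Cartpt, Sst and Ghrl lie to the upper right and Neurog3, Gpx2 and Chgb to the lower left, while Pyy lies near the centre.

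By the gene lists, the Gcg-leading class was past 2-fold higher in 7 of 14 measured hormones, against 0.464% of all genes. Of these, Gcg, Ghrl, Sst and Ins1 took part in naming the classes, and Cartpt, Iapp and Gal did not. It was also higher in 3 of 11 alpha cell genes (Gcg, Ttr and Pcsk2), 2 of 8 beta cell genes (Ins1 and Iapp), 2 of 16 granins and prohormone processing genes (Scg2 and Pcsk2) and 1 of 3 delta and PP cell genes (Sst), and the genes among these that named the classes are no finding. It was lower, against 0.355% of all genes, in 2 of 13 endocrine commitment genes (Neurog3 and Fev), 2 of 10 epithelium genes (Cldn3 and Cldn4) and 1 each of the hormones and the enteroendocrine genes (Sct), the granins and prohormone processing genes (Chgb), endocrine transcription factors (Fev), pancreatic progenitor genes (Sox9), cell cycle exit and D cyclin genes (Cdkn1c), mesenchyme (Zeb2) and dissociation stress (Jun). Proliferation had 0 of 18 past 2-fold in either direction, with medians of 0.34 in WT and -0.09 in KO. The Gcg-leading and Pyy-leading barcodes had median depths of 15073 and 12507 UMIs in WT and 12329 and 11334 in KO.

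Ghrelin, which chose the 14 Ghrl-leading barcodes, had a median of 26068 CPM in the 12 of KO (3976 to 31960), and single Gcg-leading barcodes reached 27984 CPM in WT and 20075 in KO. All 12 held Pyy, at a median of 4915 CPM, and 6 held Gcg. Their Iapp was 2350 CPM summed over the class but had a median of 228 CPM per barcode, against 373 in the Gcg-leading KO barcodes. Cartpt was 1329 CPM summed, with a median of 36.7 CPM and UMIs in 6 of the 12, so a few barcodes carried both sums. Acsl1, which activates long-chain fatty acids, was at 548 CPM in them, against 135 in Gcg-leading and 22.9 in Pyy-leading KO barcodes. The 2 of WT had 3620 and 45204 CPM of Ghrl, too few to describe further.

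The barcodes with no hormone at 3 UMIs entered the set through Chga and Chgb alone, so their level of these genes follows from the choice. Their median Chgb was 1368 CPM in the 7 of WT (328 to 14460) and 3530 CPM in the 11 of KO (137 to 31545), and Chga made up 5.00% and 4.30% of their chromogranin UMIs. Neurog3 was seen in 4 of 7 and 4 of 11 of them, and Fev in 5 and 6. Neurog3 was at 80.3 and 149 CPM and Sox4 at 447 and 702 CPM over this class. In each library both were higher than in the Gcg-leading and Pyy-leading classes. The Ghrl-leading KO barcodes had Neurog3 at 144 CPM summed, but it was seen in only 2 of the 12.

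Outside the set, 6 WT and 13 KO barcodes had at least 3 Neurog3 UMIs and fewer than 3 chromogranin UMIs, and served as Neurog3 precursors for comparison. Neurog3, which chose them, was at 458 CPM in WT and 700 in KO. They had Isl1 at 715 and 764 CPM, lower than in the chromogranin barcodes of both libraries, and Neurod1 at 272 and 214 CPM. They had Fev at 0 and 13.0 CPM, against 108 and 115 in the chromogranin barcodes. Gcg was at 28.6 and 38.9 CPM in them. Pyy was at 57.2 CPM in WT and 1898 in KO, and Slc38a5 at 572 and 2274. These are sums over 6 and 13 barcodes, and whether a few barcodes carried most of them was not tested. The rule for the Neurog3 precursors did not leave out barcodes that already bore a hormone.

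Within the chromogranin barcodes, KO and WT were within 2-fold of each other for most genes. Of 7764 genes with at least 50 UMIs, 12 were past 2-fold higher in KO (0.155%) and 9 lower (0.116%), around a median log2 ratio of 0.08. Of these, 11 and 8 remained past it without the highest barcode of each gene in each library. The markers were at -0.16 (Chga), 0.47 (Chgb), -0.36 (Gcg), -0.29 (Pyy), 0.94 (Cartpt) and 1.01 (Ghrl) as log2 ratios KO over WT. For Ghrl this came from 1411 UMIs in 35 WT barcodes and 4636 UMIs in 67 KO barcodes, and the value with every barcode weighted equally was 0.70. The share of barcodes with at least 3 Ghrl UMIs was 29.6% in WT and 26.5% in KO. Inside the Gcg-leading class Ghrl was at 0.25, and inside the Pyy-leading class at -0.45. Ghrl took part in naming the classes, and the 2 WT and 12 KO barcodes that it led lie outside both. These within-class values therefore depend on that rule.

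The genes lowest in KO were led by Cpa1, which encodes a carboxypeptidase of progenitor tips and acinar cells. It had 51 UMIs in 15 of 81 WT barcodes (41.9 CPM, 31.2 to 55.1) and 1 UMI in 147 KO barcodes (0.506 CPM, 0.0128 to 2.82), a log2 ratio of -2.30. In the other barcodes it went the same way, 164 CPM in WT and 0.983 in KO. In WT it lay mostly in the Pyy-leading class, 88.2 CPM against 8.31 in the Gcg-leading class, and it stood at 186 CPM in the WT Neurog3 precursors. Mnx1, a homeobox factor of the early pancreas that was singled out after its values were seen, had 17 UMIs in WT and 2 in KO, below the gene minimum, and was at 31.5 and 1.97 CPM in the other barcodes. Gip, the gene of an incretin, had 83 UMIs in WT and 13 in KO (-2.24), but 49 of the WT UMIs came from 1 barcode, and without the highest barcodes it was at -1.38.

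The histone genes Hist1h2ae (-1.63), Hist1h2ap (-1.61), Hist1h4d (-1.39) and Hist1h1b (-1.11) were lower in KO, and in the other barcodes too, at -1.79, -1.32, -1.28 and -0.56. The remaining named genes lower in KO were Gm8186 (-1.24), Plagl1 (-1.18), Ptn (-1.10) and Atg2a (-0.97). Without the highest barcode of each library Plagl1 was at -0.84 and Atg2a at -0.16. A single WT barcode held 25 of the 84 WT UMIs of Plagl1, and a single one held 28 of the 48 of Atg2a.

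Higher in KO were the X-inactivation RNA Xist (2.63, 73.1 CPM in WT and 504 in KO) and its antisense partner Tsix (1.78). Whether the counting used strand was not stated in the labels, so counts of these overlapping genes cannot be told apart. Of the WT barcodes, 6 had UMIs of Xist alone, 50 of Y-linked genes alone, 7 of both and 18 of neither. Of the KO barcodes these were 61, 43, 30 and 13. The make-up of the pools by sex thus differed with genotype, and its part in the other differences was not tested. Whether barcodes with both kinds hold more than 1 cell was not tested.

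The predicted genes Gm10260 (3.34) and Gm11361 (2.18) were also higher in KO, and in the other barcodes likewise (3.70 and 2.90). Acsl1 was at 1.31, with 45 UMIs in WT and 210 in KO, and at 1.23 inside the Gcg-leading class but 0.15 inside the Pyy-leading class. Barx1, a homeobox gene of stomach mesenchyme, was at 1.18 and Onecut2, a factor related to Onecut1, at 1.07. Both were higher mainly in the Pyy-leading class, at 2.21 and 1.60 there against 0.70 and 0.34 in the Gcg-leading one. Onecut2 was also higher in the other barcodes (1.95), and Barx1 less so (0.40). Acaa1a (1.11) and Clybl (1.10), enzymes of peroxisomes and mitochondria, and Vgll2 (1.08) complete the group. Vgll2 was at 0.79 without the highest barcodes, with 19 of its 53 KO UMIs in 1 barcode.

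**Figure D5:**
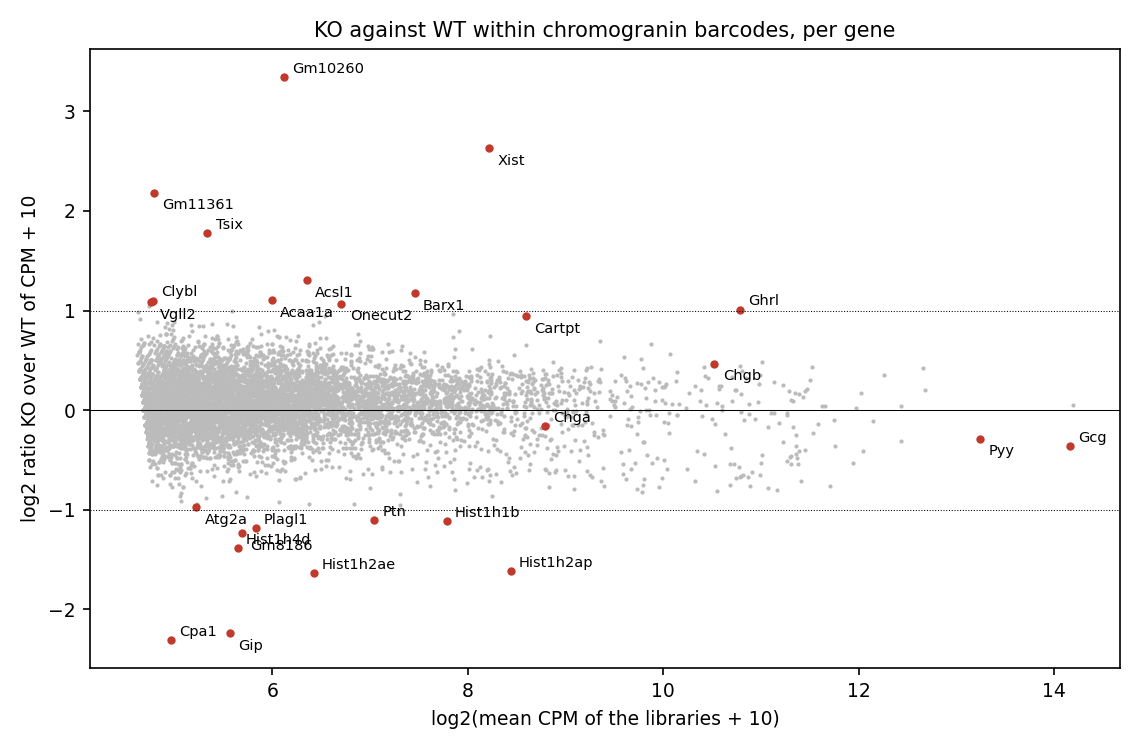
Log2 ratio KO over WT of CPM plus 10 within chromogranin barcodes (vertical) against the log2 of the mean CPM of both libraries plus 10 (horizontal). Each grey point is 1 of 7764 genes, red points are named, and dotted lines mark 2-fold. Xist and Gm10260 are at the top, Cpa1 and Gip at the bottom, and Gcg, Pyy, Chga and Chgb lie inside the dotted lines.

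By the gene lists, the hormones had 1 of 14 past 2-fold higher in KO (Ghrl) and 1 lower (Gip), against 0.155% and 0.116% of all genes, with a median of -0.11. Granins and prohormone processing (17 genes, median 0.01), exocytosis machinery (15, 0.01), endocrine transcription factors (19, 0.08), alpha cell genes (11, 0.08), beta cell genes (8, 0.00), delta and PP cell genes (3, -0.11) and nutrient and ion channel genes (9, 0.09) had none past 2-fold. The extremes of these lists were Scg5 (0.95), which encodes a chaperone of Pcsk2, and Pdx1 (-0.68), a master factor of the pancreas, which had 105 UMIs in WT and 99 in KO. Enteroendocrine genes had 1 of 6 lower, Gip, and a median of 0.06. Endocrine commitment had 0 of 13 past 2-fold and a median of 0.29, with Neurog3 highest at 0.86 (28 UMIs in WT and 99 in KO) and Neurod1 lowest at -0.02. In the other barcodes Neurog3 was at 1.29.

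Pancreatic progenitor genes had 1 of 10 lower, Cpa1, with a median of -0.22, and Sox9 was highest at 0.36. Epithelium (10 genes, median 0.16), the Notch pathway (6, 0.14), proliferation (18, -0.26) and cell cycle exit and D cyclins (12, 0.09) had none past 2-fold. Cdk1 was lowest of the proliferation genes at -0.46 and Mcm3 highest at 0.11. Mesenchyme had Barx1 higher and Plagl1 lower among 10, with a median of -0.08. Hepatobiliary genes (7, median -0.07, Apoa2 lowest at -0.86) and the sympathoadrenal and enteric neuron list (6, 0.00) had none. Sex-linked genes had 2 of 5 higher, Xist and Tsix, and a median of -0.22, and the 2 measured dissociation stress genes, Jun and Ier2, were at 0.06 and 0.12.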

How the data were processed

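Single-cell RNA libraries of 1 WT and 1 KO pool were made with a 10x Genomics 3′ kit, per the labels' protocols, and each barcode's prefix names its library. The matrix the authors deposited gives unnormalised UMI counts, whole numbers per the file headers, for 31028 gene symbols, with 0 mitochondrial and 0 haemoglobin names. The submitters' processing notes name the build mm10. Aligner, annotation and cell calling were not given in the sources used here. All 4 ATAC libraries of the series were not used here.

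UMI counts were summed per library and set and scaled to CPM. Log2 ratios used a pseudocount of 10 CPM and genes with at least 50 UMIs, and 2-fold was the limit for a count. With 1 library per group no test was run. Intervals are exact Poisson for sums, exact binomial (Clopper-Pearson) for shares and Newcombe for differences of shares, all at 95%. Floors use 3 counts. UMIs, not reads, were counted, and free RNA and doublets remain in the values. Doublets were called per library with scrublet in scanpy 1.11.5 and kept. Barcodes were thinned to 2000 UMIs where depth mattered. Computations used Python 3.11.15, numpy 2.4.6 and scipy 1.17.1, and were tested on simulated data.

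Genes were named by rule: Ptf1a, the 6 markers, the 15 highest and 5 lowest genes against other barcodes, the 10 highest and 10 lowest KO over WT among genes whose count ratio interval leaves out 1, the highest and lowest measured member of each of 24 lists, and the 6 hormones. Some genes that the rule or the lists select are not reported here. Others are illustrations, and the genes that part the hormone classes were chosen after their values were seen. The members and lists were chosen with earlier results of these data known. The lists are the gene groups given by name with the results. Promoters are from RefSeq (GRCm38.p6, the assembly that mm10 denotes), and all 3 symbols matched. Alternatives covered the chromogranin, gene and hormone minimums, doublets, pseudocount, scaling, thinning and single barcodes.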

Additional observations from a re-analysis of the deposited data

How the results depend on the processing

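The excess of chromogranin barcodes in KO stayed positive under every alternative tried. It was 13.4 points when barcodes from 500 genes were kept and 9.24 points with 3 chromogranin UMIs asked for after thinning to 2000 UMIs. Only named genes were followed here, mostly the extremes of each comparison picked from these same data. Some alternatives, such as the gene minimum of 20 UMIs, cannot change a ratio. Those named genes past 2-fold in the reported setting gave 560 values under the alternatives, of which 558 kept their direction and 525 were still past 2-fold. The 2 that did not were Ptn in Gcg-leading barcodes alone (0.0375) and Nefl between the classes after thinning (-0.0789), and the cause was not tested. Genes lower in KO numbered 15 with a chromogranin minimum of 2 UMIs, 15 with median-of-ratios scaling, 31 with a pseudocount of 1 CPM, 14 with a gene minimum of 20 UMIs and 21 in Gcg-leading barcodes alone. Genes higher in KO numbered 53 with a pseudocount of 1 CPM and 25 of 1641 after thinning. Against other barcodes, 692 genes were higher and 348 lower with a pseudocount of 1 CPM, 190 of 4688 higher after thinning, and 195 lower with barcodes weighted equally. List genes past 2-fold KO against WT numbered 12 with a pseudocount of 1 CPM, 4 with equal weights and 3 of 64 after thinning. Between the Gcg-leading and Pyy-leading classes, 60 were higher and 59 lower with a pseudocount of 1 CPM, and 12 and 10 of 1281 after thinning. The alternatives that leave out the highest barcodes, those of the comparison between the classes and the thinned minimum of 3 UMIs were chosen after seeing the data. After thinning, the Notch pathway, sympathoadrenal and dissociation stress lists gave no median. No paired analysis was possible because each genotype had 1 RNA library.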
